A study of Mus musculus with 18 samples.

Results

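The NK homeobox genes followed here are Nkx2-1, Nkx2-2, Nkx2-3, Nkx2-5, Nkx2-6, Nkx2-9 and Nkx3-2, found by symbol in a table of raw read counts for 23337 genes. All 7 are in that table, and 6 of them passed the filter on low counts that left 14892 genes for testing; Nkx2-2 did not. They were picked by symbol, to set the cardiac gene Nkx2-5 beside relatives known from ventral neural tube, lung, pharynx and gut mesenchyme, with earlier results of these data known.

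The study sequenced polyA RNA from mouse embryonic stem cells that were differentiated toward cardiomyocytes and collected as cardiac cells at D5, D6, D8 and D12. Every group was made from the same GLI1-FTA line on the A2Lox.cre strain, a mouse stem cell background built to place a chosen gene under doxycycline control. GLI1 overexpression (OE) cells were given doxycycline at 500 ng/ml for 24 h between D5 and D6, then washed and cultured on. Controls are labelled untreated, so the effects of doxycycline and of induced GLI1 cannot be told apart. The groups were D5 control (n = 4), D6 control (n = 3), D6 GLI1 OE (n = 3), D8 control (n = 2), D8 GLI1 OE (n = 2), D12 control (n = 2) and D12 GLI1 OE (n = 2), 18 libraries in all. The labels do not tell whether the libraries of a group were grown as separate cultures. The p-values thus describe the spread between libraries, and that spread may be technical. Raw counts of D5 control libraries 1 and 2 lay close together, with a mean chi-square per gene of 7.17. The other D5 pairs ranged from 53.5 to 99.2. The 4 D5 libraries may thus hold fewer than 4 independent cultures, which was not tested.

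NK genes encode homeodomain transcription factors, which bind DNA through a conserved domain encoded by the homeobox. They divide the body between them. Nkx2-5 and Nkx2-6 act in the heart and pharyngeal region, Nkx2-2 and Nkx2-9 in the ventral neural tube, Nkx2-1 in lung, thyroid and ventral forebrain, Nkx2-3 in gut mesenchyme and spleen, and Nkx3-2 in sclerotome, gut mesenchyme and spleen. In the embryo several of them, Nkx2-2 and Nkx2-9 among them, lie downstream of Hedgehog signalling, which GLI proteins carry to DNA by binding the sequence GACCACCCA.

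Because the members are related, reads of 50 bases that fall in a shared stretch could be counted for the wrong gene. Over whole GENCODE M21 transcripts the longest run of identical bases between any pair of members was 42, between Nkx2-1 and Nkx2-9. None of the 21 pairs shared an identical run as long as a read.

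The promoters of the 3 genes with the clearest differences at D6 are shown because GLI1 is a DNA-binding factor. Each runs from 250 bases before to 50 after the transcription start, from RefSeq on GRCm38.p6, and capitals mark CCACCCA or its reverse complement, the core of the GLI sequence. Nkx2-9 lies at chr12:56613235-56613534 on the minus strand, Nkx2-3 at chr19:43612075-43612374 on the plus strand and Nkx3-2 at chr5:41764171-41764470 on the minus strand.
Nkx2-9: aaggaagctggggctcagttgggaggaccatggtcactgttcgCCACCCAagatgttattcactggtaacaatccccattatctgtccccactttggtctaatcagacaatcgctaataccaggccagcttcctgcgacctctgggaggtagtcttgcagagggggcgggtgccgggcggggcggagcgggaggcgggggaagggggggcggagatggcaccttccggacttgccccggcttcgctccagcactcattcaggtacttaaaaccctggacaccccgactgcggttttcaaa
Nkx2-3: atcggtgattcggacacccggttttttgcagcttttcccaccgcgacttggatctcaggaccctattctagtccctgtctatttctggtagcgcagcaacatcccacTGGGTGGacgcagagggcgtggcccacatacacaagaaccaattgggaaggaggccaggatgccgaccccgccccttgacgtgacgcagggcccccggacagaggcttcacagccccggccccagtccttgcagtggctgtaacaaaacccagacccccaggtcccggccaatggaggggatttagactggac
Nkx3-2: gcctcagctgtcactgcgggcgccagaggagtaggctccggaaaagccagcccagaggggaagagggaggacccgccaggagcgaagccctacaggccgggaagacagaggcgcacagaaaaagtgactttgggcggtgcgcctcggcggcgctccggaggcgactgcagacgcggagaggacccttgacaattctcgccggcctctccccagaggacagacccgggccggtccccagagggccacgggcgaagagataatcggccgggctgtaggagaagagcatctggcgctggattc
The full GACCACCCA, searched on both strands, was in none of the 6 member promoters with an entry (Nkx2-6 was not in the table), against 0.253% of all 32851 promoters. The core, which is part of the full sequence, was in the Nkx2-9 and Nkx2-3 promoters and in 9.3% of all promoters, while the Nkx3-2 line has no capitals because neither was found. A match describes letters in this window only, and no binding was measured here.

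In untreated cells the 7 genes lay far apart. Levels can be compared between genes only per length, and for that the authors' deposited TPM (transcript levels scaled for gene length and depth) of the 4 D5 controls were used. Nkx2-5 was highest at 24.9 ± 20.97 TPM (SD, n = 4), followed by Nkx2-6 at 6.68 ± 2.82 TPM and Nkx2-9 at 2.68 ± 1.496 TPM. Nkx3-2 reached 0.222 ± 0.151 TPM with 1 library at 0, Nkx2-3 was listed at 0.131 TPM in 1 library and at 0 in the others, and Nkx2-1 and Nkx2-2 were listed at 0 in all 4. The cells at D5 therefore held transcripts of the cardiac and pharyngeal pair and of Nkx2-9, while the lung, gut and spleen members were near or at 0.

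All further levels are CPM (counts scaled to library size, which edgeR adjusts for composition), and each gene is compared only with itself. Total counts per library ran from 18470785 to 26184339. Gli1 itself, the check of the induction, rose from 13.99 ± 7.28 CPM (SD, n = 3) in D6 controls to 909 ± 134 CPM (SD, n = 3) in D6 GLI1 OE, a log2 fold change of 6.02 ± 0.59 (SE; edgeR quasi-likelihood test, Benjamini-Hochberg adjusted p = 4.31e-05). Ptch1, the Hedgehog receptor and a standard target of GLI, rose by 4.25 ± 0.35 (adjusted p = 1.53e-05 in the same edgeR test). All 6 cardiomyocyte markers (such as Tnnt2, Myh6 and Actn2) were detected in all 18 libraries, with summed levels from 746 to 11754 CPM. These are bulk libraries, so fewer cells of a type and less RNA per cell cannot be told apart.

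**Figure D1:**
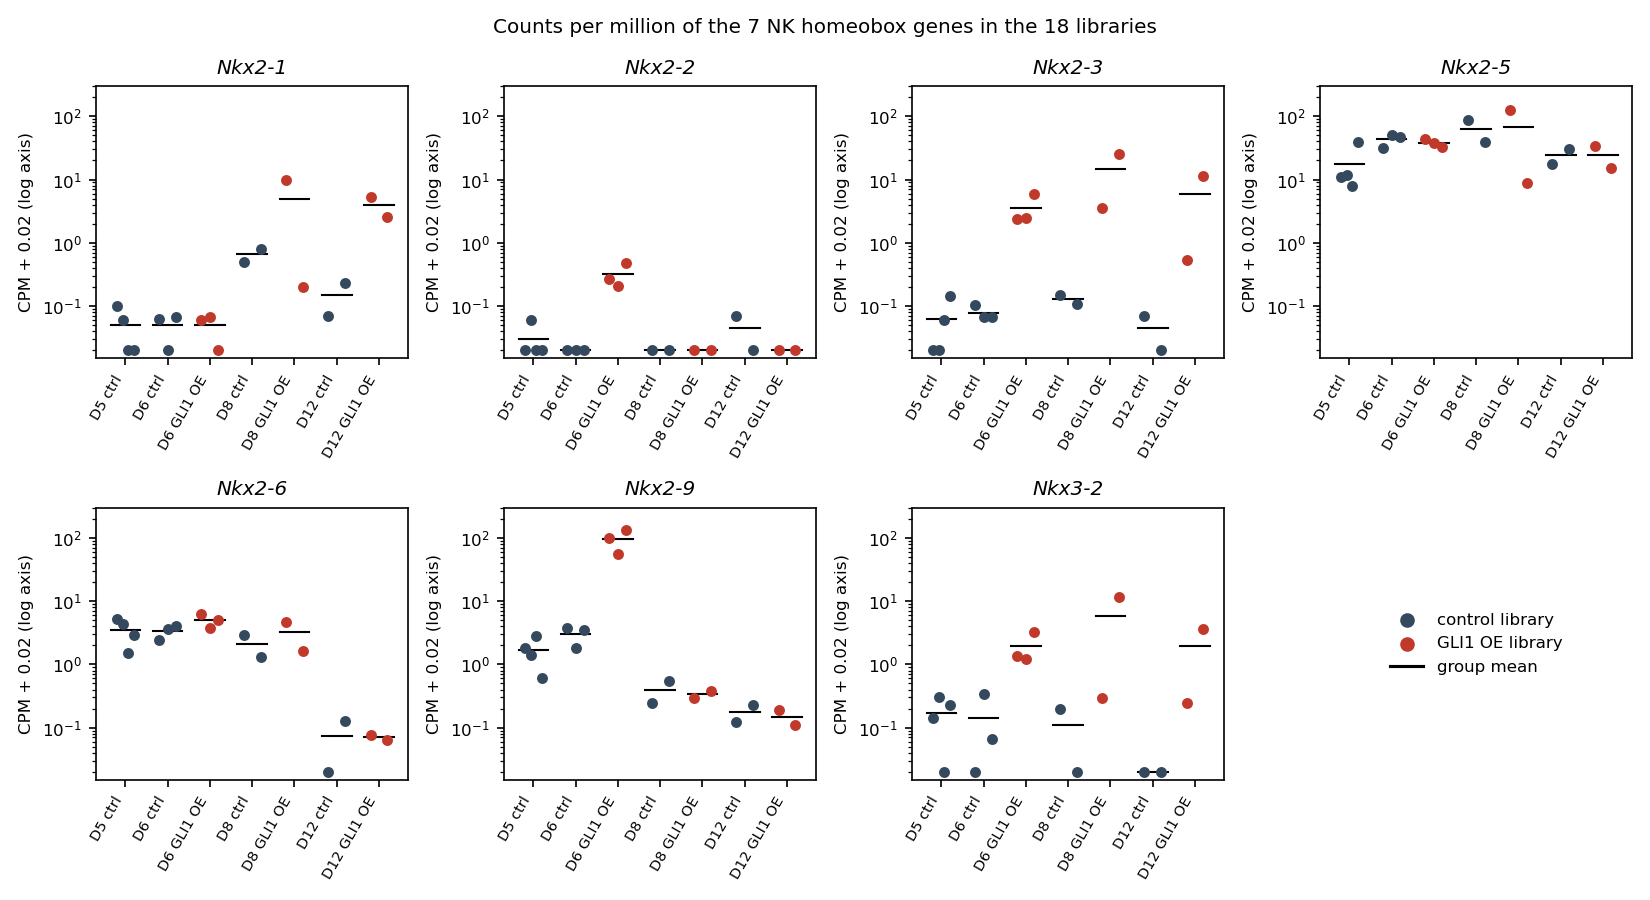
CPM plus 0.02 on a log axis for each of the 7 genes, 1 point per library, by day and condition, with a black line at the group mean. Nkx2-9 stands high only in the 3 D6 GLI1 OE libraries, Nkx2-3 is higher in all 7 GLI1 OE libraries than in any control library, and Nkx2-5 overlaps between conditions at each day.

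Nkx2-9, a ventral neural tube gene, had the most certain difference at D6. The 3 D6 control libraries held 3.74, 1.77 and 3.41 CPM (88, 38 and 73 counts) and the 3 D6 GLI1 OE libraries 98.9, 55.3 and 133 CPM (2392, 1166 and 2878 counts). The groups were far apart, with the lowest GLI1 OE library well above the highest control. Nkx2-9 rose by 5.01 ± 0.49 on the log2 scale (SE; edgeR adjusted p = 4.31e-05), an average of 32.1-fold. Between libraries with adjacent numbers the ratio was 26.4, 31.3 and 39.0. In this comparison edgeR called 4.14% of the 14892 genes. Of the 6 tested members 2, Nkx2-9 and Nkx2-3, were among them, both in the 3.02% called higher. Nkx2-3 and Nkx3-2 passed the filter on low counts only through GLI1 OE libraries, with at most 3 and 7 counts in any control library. Their place among the tested members thus already reflects higher counts under GLI1 OE, and the 2 shares are not comparable.

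Nkx2-3, which acts in gut mesenchyme and spleen, was almost silent in every control and was counted in every GLI1 OE library. D6 controls held 2, 1 and 1 counts and D6 GLI1 OE libraries 58, 52 and 128 counts, or 2.40, 2.47 and 5.92 CPM. The groups did not overlap, and Nkx2-3 rose by 5.78 ± 1.25 on the log2 scale (SE; edgeR adjusted p = 0.0166, 95% interval 3.08 to 8.47). The call was lost in 5 of the 12 alternatives run. The edgeR adjusted p was 0.0752, 0.0747 and 0.0833 without D6 control library 3, 11 or 15, and 0.0623 without D6 GLI1 OE library 16. In limma-voom it was 0.172. The authors' deposited D6 table (DESeq2) lists Nkx2-3 with a log2 fold change of 5.91 and an adjusted p of 1.08e-09.

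Nkx3-2, of the sclerotome and the mesenchyme of gut and spleen, had the same shape at lower counts. D6 controls held 0, 7 and 1 counts and D6 GLI1 OE libraries 32, 25 and 70 counts, or 1.32, 1.19 and 3.24 CPM. The groups did not overlap, and the estimate was 3.91 ± 1.49 on the log2 scale (SE), which did not pass the test across all genes (edgeR adjusted p = 0.199). With the library numbers as pairs Nkx3-2 passed (3.88 ± 0.75, edgeR adjusted p = 0.0112), in a fit that called 4576 of 13638 genes. With only the D6 groups in the fit the edgeR adjusted p was 0.039. The authors' deposited D6 table (DESeq2) lists Nkx3-2 with a log2 fold change of 3.97 and an adjusted p of 0.000429.

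Nkx2-2, the other Hedgehog-dependent neural member, was counted at D6 almost only under GLI1 OE. The 3 D6 GLI1 OE libraries held 6, 4 and 10 counts and the 3 D6 controls 0, so the level was at least 6.62-fold higher, taking 3 counts over the control group as the most that 0 allows. Counts this low fell under the filter. Without the filter the edgeR adjusted p was 0.0492, DESeq2 gave an unadjusted p of 0.189, and the authors' deposited table lists a log2 fold change of 5.18 with an adjusted p of 0.0262. In the other groups Nkx2-2 reached at most 1 count in a library, and both D8 and D12 GLI1 OE groups were at 0.

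Nkx2-5, the cardiac member, is known as an early regulator of heart muscle genes. D6 controls held 31.8, 51.2 and 47.1 CPM and D6 GLI1 OE libraries 44.3, 37.3 and 32.5 CPM. These ranges overlap, and the estimate was -0.19 ± 0.74 on the log2 scale (SE; edgeR adjusted p = 0.955), with a 95% interval from -1.78 to 1.40 that still holds changes of more than 2-fold either way. Nkx2-6, its pharyngeal and cardiac relative, stood at 2.38, 3.54 and 3.97 CPM in controls against 6.28, 3.75 and 5.09 CPM, with an estimate of 0.61 ± 0.51 (edgeR adjusted p = 0.656). Nkx2-1 had 2 counts in each group, too few for a fold.

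Chromosome neighbours of the members had very different values at D6. In RefSeq order Nkx2-9 lies between Nkx2-1 and Pax9 on chromosome 12, and while Nkx2-9 rose, Nkx2-1 held 2 counts in each group and Pax9 held 3 counts over the D6 controls and 0 under GLI1 OE. Nkx2-2 on chromosome 2 lies between Nkx2-4 and Pax1, which had 2 against 1 and 0 against 1 counts in control and GLI1 OE, and next comes Foxa2, a floor plate and endoderm gene. Foxa2 rose from 0.567 CPM to 97.6 CPM on average, by 7.43 ± 0.97 (SE; edgeR adjusted p = 0.00042). Whether neighbours differ in their response was not tested as a contrast between genes.

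**Figure D2:**
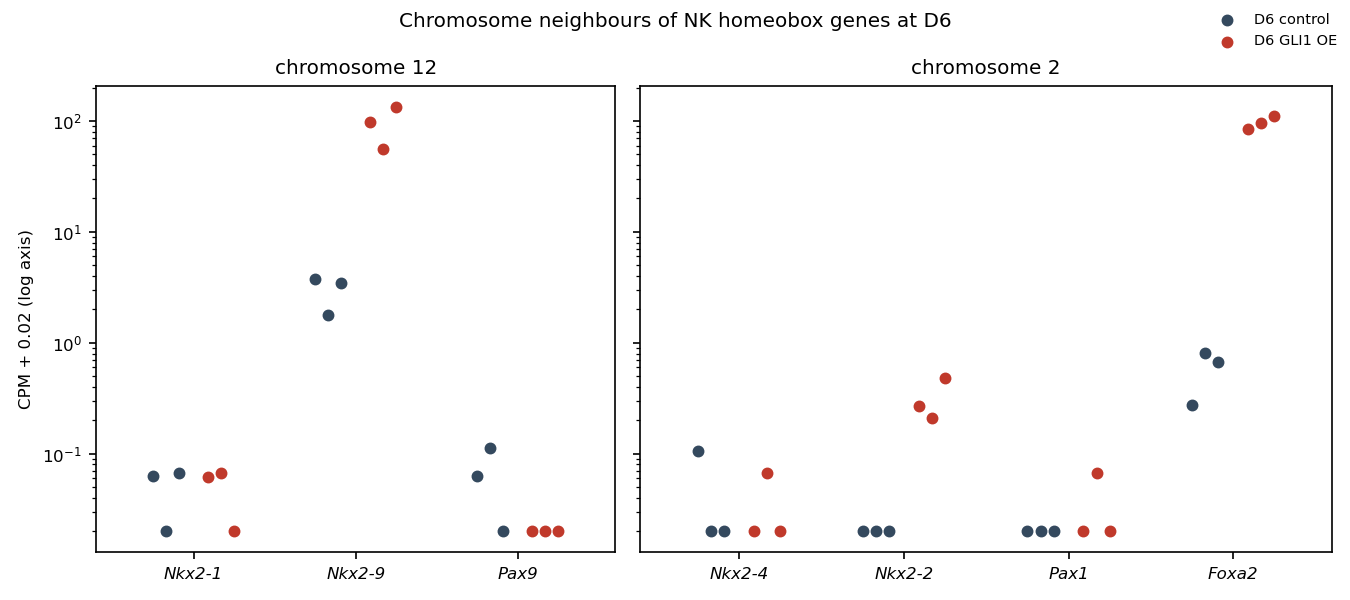
CPM plus 0.02 on a log axis for 2 sets of chromosome neighbours at D6, drawn in RefSeq gene order but not to genomic scale, 1 point per library for 3 D6 control and 3 D6 GLI1 OE libraries. Nkx2-9 and Foxa2 separate by condition at high levels, Nkx2-2 at a few counts, and Nkx2-1, Pax9, Nkx2-4 and Pax1 stay near 0.

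At D8, after doxycycline had been withdrawn, edgeR called none of the 14892 genes (0%), with 886 at an unadjusted p under 0.05 and 40 called by DESeq2, so no member could be read as changed from this test. Nkx2-9 stood at 5 and 12 counts in the controls and 6 and 8 counts under GLI1 OE (0.221, 0.523, 0.278 and 0.363 CPM). The conditions overlapped, with an estimate of -0.21 ± 0.86 (SE; edgeR adjusted p = 0.985). The change of its GLI1 OE effect from D6 to D8 was -5.22 ± 1.00 on the log2 scale (edgeR interaction test, adjusted p = 0.031, against 0.631% of genes called in that contrast). Limma-voom did not call it (adjusted p = 0.305), and neither did edgeR without D6 control library 15, either D8 control library or either D8 GLI1 OE library, where the adjusted p ran from 0.0548 to 0.497. At D12 it stood at 2 and 4 counts in controls against 3 and 2, and the interaction of D12 with D6 was -5.30 ± 1.49 (edgeR adjusted p = 0.192), where 0 of 6 tested members and 0.604% of all genes were called.

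Nkx2-3 was still counted in the GLI1 OE libraries at D8 and D12. The D8 controls held 3 and 2 counts and the D8 GLI1 OE libraries 77 and 567 counts, or 3.56 CPM in library 14 and 25.7 CPM in library 18. Both GLI1 OE libraries lay above both controls, and library 18 lay far above library 14. The estimate was 6.99 ± 1.46 on the log2 scale (SE), with an unadjusted p of 0.000312 and an edgeR adjusted p of 0.489, while DESeq2 gave an adjusted p of 0.00103 and edgeR without library 14 gave 0.0437. Without library 18 the estimate dropped to 4.95 ± 1.37 (SE; edgeR adjusted p = 0.843). At D12 the controls held 1 and 0 counts and the GLI1 OE libraries 9 counts in library 10 and 250 counts in library 20. That is a ratio of 250 (exact 95% interval 44.5 to 9930, counting error only), with an edgeR adjusted p of 0.492 and a DESeq2 adjusted p of 0.0272. Nearly all of those counts came from library 20, and without it the edgeR estimate went from 7.55 to 4.05 on the log2 scale (adjusted p = 1).

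Nkx3-2 followed the same libraries. At D8 it held 4 and 0 counts in controls, 6 counts in GLI1 OE library 14 and 251 counts in library 18. At D12 it held 0 counts in both controls, 4 counts in GLI1 OE library 10 and 80 counts in library 20, at least 27.1-fold higher than the 3 counts that 0 allows over the control group. Most of its counts on each day thus came from a single GLI1 OE library, and without library 18 the D8 estimate went from 5.96 to 1.60 on the log2 scale. Neither day passed the test (edgeR adjusted p = 0.711 at D8 and 0.751 at D12). Over the 18 libraries log2 CPM of Nkx2-3 and Nkx3-2 had Pearson's r of 0.894 and Spearman's rho of 0.663, the highest r among the 15 pairs of tested members, described without a test because the libraries share days and conditions.

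Nkx2-1, the lung, thyroid and forebrain member, was absent or nearly so until D8. The D8 controls held 11 and 18 counts, or 0.487 and 0.785 CPM, and the D8 GLI1 OE libraries 209 counts in library 14 and 4 counts in library 18, or 9.67 and 0.182 CPM. One GLI1 OE library lay above both controls and the other below both, and without library 14 the estimate of 2.94 ± 1.15 turned to -1.79 ± 1.06 (SE). At D12 the controls held 1 and 4 counts and the GLI1 OE libraries 94 and 56 counts, or 5.34 and 2.50 CPM. Here both GLI1 OE libraries lay above both controls, with an estimate of 4.85 ± 1.38 (SE) that did not pass the test across all genes (unadjusted p = 0.00343, edgeR adjusted p = 0.585). At D12 edgeR again called none of the 14892 genes (0%), with 840 at an unadjusted p under 0.05 and 16 called by DESeq2. The authors' deposited table for D12 lists Nkx2-1 with a log2 fold change of 4.82 and an adjusted p of 4.99e-08.

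Nkx2-5 overlapped between conditions on both later days. At D8 the controls held 86.7 and 39.8 CPM and the GLI1 OE libraries 124 CPM in library 14 and 8.72 CPM in library 18, which were the highest and the lowest of the 4. Its estimate was 0.07 ± 0.90 on the log2 scale (SE; edgeR adjusted p = 0.998, 95% interval -1.87 to 2.01), and -2.87 ± 0.94 without library 14 (adjusted p = 0.191). At D12 the controls held 17.3 and 30.7 CPM and the GLI1 OE libraries 33.4 and 15.1 CPM, with an estimate of 0.01 ± 0.92. Nkx2-6 at D8 held 2.88 and 1.31 CPM in controls against 4.72 and 1.63 CPM (0.60 ± 0.64), and at D12 each group held 2 counts over both libraries.

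**Figure D3:**
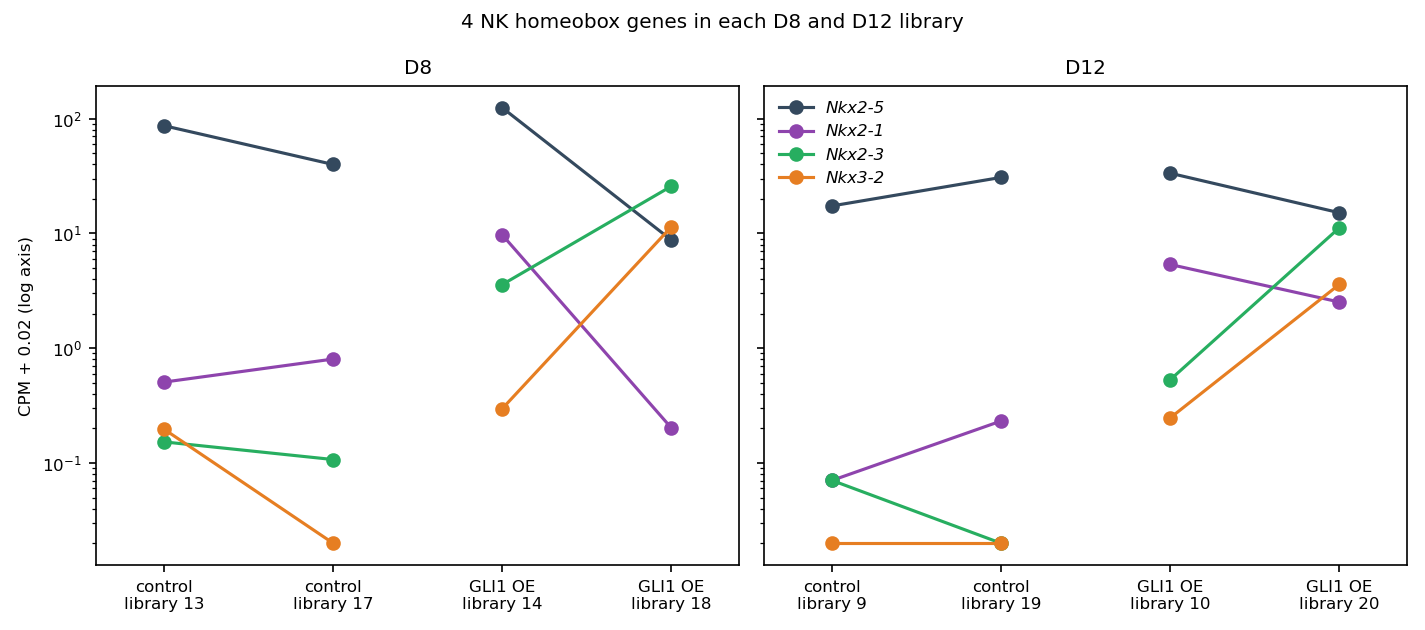
CPM plus 0.02 on a log axis for Nkx2-5, Nkx2-1, Nkx2-3 and Nkx3-2 in each of the 4 D8 and 4 D12 libraries, with lines joining the libraries of a group only to follow a gene. At D8 Nkx2-5 and Nkx2-1 are high in GLI1 OE library 14 and low in library 18, while Nkx2-3 and Nkx3-2 are the other way round, and the D12 libraries 10 and 20 split in the same directions.

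The GLI1 OE libraries of D8 and D12 also differed in markers of cell types, so these values belong beside the member levels. At D8 the 6 cardiomyocyte markers summed to 9832 CPM for library 14 but to 746 CPM for library 18, against 4651 and 11754 CPM in the controls. Library 18, with the high Nkx2-3 and Nkx3-2, had the higher sums for 6 gut and lung mesenchyme markers (86.5 against 53.6 CPM), 6 paraxial mesoderm and sclerotome markers (51.0 against 17.4 CPM) and 8 endoderm markers (22.8 against 4.997 CPM). D8 controls ranged from 29.5 to 35.4 CPM, 17.04 to 22.2 CPM and 6.94 to 9.89 CPM for these lists. At D12 library 20, again the one with more Nkx2-3 and Nkx3-2, had 95.6 against 28.1 CPM of mesenchyme markers and 73.7 against 19.8 CPM of paraxial markers, with cardiomyocyte markers at 2288 against 4565 CPM. D12 controls ranged from 18.9 to 31.5 CPM, 16.4 to 17.9 CPM and 3546 to 9221 CPM for these lists. The mesenchyme list held no marker at 0 in these 4 GLI1 OE libraries, and Pax1 and Uncx of the sclerotome list were at 0 in all 4. On average over the 18 libraries most of the paraxial and sclerotome sum was a single gene, Meox1 (13.2 CPM), with Pax3 at 0.209 CPM. That sum is therefore no measure of the list as a whole. The neural list, where Nkx2-2 and Nkx2-9 would belong, summed to between 5.85 and 15.2 CPM in the same 4 libraries. At least 1 of Sox1, Neurog2 and Olig2 was at 0 in each of them. The neural sums were 9.11 to 12.3 CPM in D8 controls and 1.91 to 3.49 CPM in D12 controls. The part of cell makeup in the member values was not tested.

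**Figure D4:**
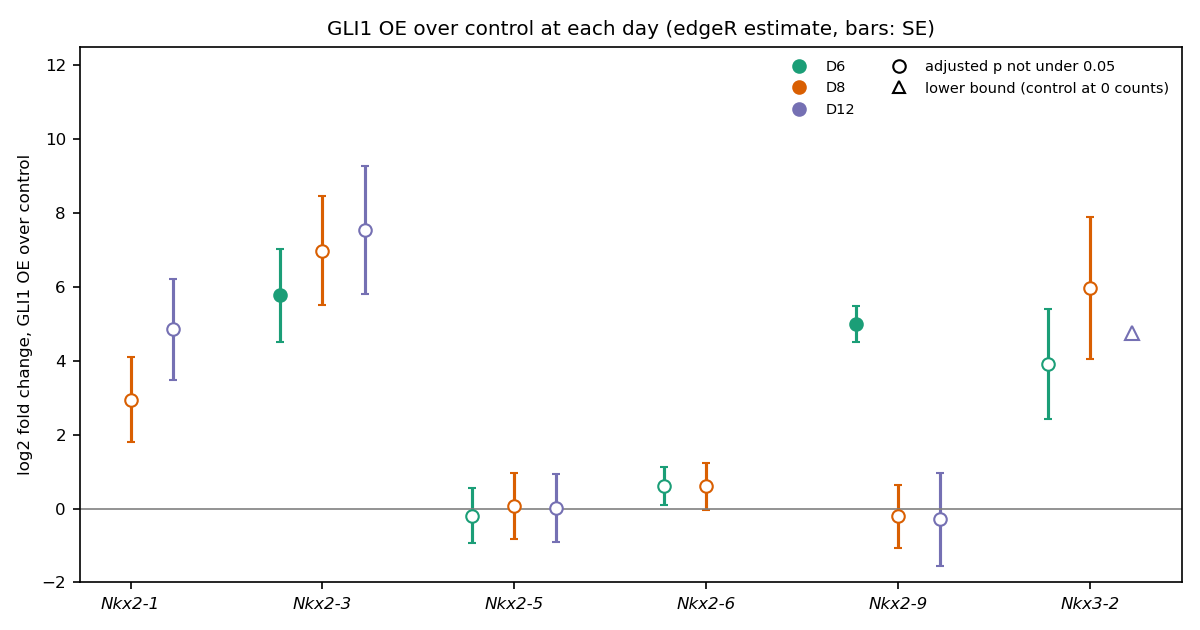
Difference of GLI1 OE from control for the 6 tested members at D6, D8 and D12, as the edgeR log2 fold change with its SE as bars, filled where the adjusted p was under 0.05 and as a triangle where the control group held 0 counts and only a lower bound can be given. Only Nkx2-3 and Nkx2-9 at D6 are filled, and Nkx2-5 sits near 0 on each day. Combinations with at most 3 counts in each group are left out.

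With time in untreated cells the members went separate ways. From D5 to D6, where 18.4% of all genes were called, edgeR called none of the 6 tested members. None had an unadjusted p under 0.05, and DESeq2 and limma-voom called none of them. The estimate nearest to the threshold was that of Nkx2-9, 0.85 ± 0.43 on the log2 scale (SE; edgeR adjusted p = 0.193). That of Nkx2-5 was larger, 1.31 ± 0.69 (SE; edgeR adjusted p = 0.216), with a 95% interval from -0.18 to 2.80 that does not exclude a sizeable rise. From D6 to D8, where 34.8% of all genes were called, Nkx2-9 fell by 2.98 on the log2 scale (SE 0.65, edgeR adjusted p = 0.00331), from 2.97 ± 1.06 CPM (SD, n = 3) to 0.372 ± 0.213 CPM (SD, n = 2). Limma-voom gave an adjusted p of 0.0685 and edgeR without D8 control library 13 gave 0.0505. Nkx2-1 rose from 2 counts over 3 libraries to 29 counts over 2, a ratio of 21.1 (exact 95% interval 5.35 to 183, counting error only; edgeR adjusted p = 0.0406), and no leave-one-out fit kept that call, with adjusted p between 0.0813 and 0.141. From D8 to D12, where 36.3% of all genes were called, Nkx2-6 was the only member called. Its counts went from 65 and 30 to 0 and 2, 40.3-fold lower (interval 10.9 to 338; edgeR adjusted p = 0.00104). The other tested members also had estimates below 0 that were not called, with 2 libraries per group. Those estimates were -1.40 ± 0.93 (SE) for Nkx2-5, -2.24 ± 1.40 for Nkx2-1, -1.23 ± 1.01 for Nkx2-9, -1.88 ± 2.40 for Nkx2-3 and -4.05 ± 4.11 for Nkx3-2.

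In GLI1 OE cells Nkx2-9, Nkx2-1 and Nkx2-6 passed the test with time. From D6 to D8, with 40.1% of all genes called, Nkx2-9 fell by 8.20 on the log2 scale (SE 0.73, edgeR adjusted p = 1.03e-05), from 95.8 ± 39.0 CPM (SD, n = 3) to 0.320 ± 0.0606 CPM (SD, n = 2). Nkx2-1 went from 2 counts over 3 libraries to 213 counts over 2 (ratio 163, interval 44.6 to 1360, edgeR adjusted p = 0.00121), which rested on library 14, since without it the adjusted p was 0.193. From D8 to D12, with 33.5% of all genes called, Nkx2-6 fell from 102 and 36 counts to 1 and 1, 63.2-fold lower (interval 17.2 to 527; edgeR adjusted p = 0.000537). Against the D5 controls, from which 29.5% of genes differed, D6 GLI1 OE cells held more Nkx2-9 (5.86 ± 0.45, edgeR adjusted p = 3.4e-07) and more Nkx2-3 (6.27 ± 1.15, edgeR adjusted p = 0.00107).

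Ranked by mean CPM, the 7 groups gave a different order for each tested member, and most neighbours in those orders were not separated. Of 36 neighbouring pairs (6 for each of 6 members) edgeR called 5. Neighbours were picked by these same means as the closest groups, so few calls were likely from the start. The adjusted p-values do not account for that choice. For Nkx2-9 the order ran from D6 GLI1 OE through D6 control, D5 control, D8 control, D8 GLI1 OE and D12 control to D12 GLI1 OE, with steps below D6 GLI1 OE (adjusted p = 4.31e-05) and below D5 control (adjusted p = 0.013, where 51.7% of genes were called between D8 and D5 controls). For Nkx2-3 all 3 GLI1 OE groups stood above all 4 control groups, with the step between D6 GLI1 OE at 3.60 ± 2.01 CPM (SD, n = 3) and D8 control at 0.110 CPM (edgeR adjusted p = 0.0101, 44.3% of genes called). For Nkx3-2 the same split held, and the step from D12 GLI1 OE to D5 control was called by edgeR (adjusted p = 0.0332, 65% of genes called) although their libraries overlapped. For Nkx2-6 the step lay between D8 and D12 controls, and for Nkx2-5 and Nkx2-1 none of the 6 steps was called. Nkx2-5 means ran from 17.5 ± 14.8 CPM (SD, n = 4) at D5 to 66.4 ± 81.6 CPM (SD, n = 2) at D8 under GLI1 OE.

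Genes whose log2 CPM followed a member most closely over the 18 libraries were named by Pearson's r among genes with a mean log2 CPM of at least 1. Nkx2-9 was followed by Gli1 (0.97), Pwp1 (0.962) and Aco1 (0.95). Nkx2-5 was followed by Neurl2 (0.882), Eepd1 (0.852) and Atp7b (0.827), and Nkx2-6 by Trmt12 (0.968), Lcmt2 (0.968) and Naa35 (0.963). For Nkx2-3 they were Pdzd4 (0.881), Zcchc18 (0.872) and Gpc2 (0.864), for Nkx3-2 Tmem158 (0.825), Zcchc18 (0.819) and Twsg1 (0.808), and for Nkx2-1 Pcbp3 (0.859), Rfxap (0.83) and Eid2b (0.828). Ranked by Spearman's rho instead, 2 of the 3 genes were shared for Nkx2-5 and 0 of 3 for the other members. All points share the same days, so these values describe likeness of pattern only.

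Around the members, 4 lists of other genes were followed at D6, beside an estimate of -0.02 for the median of all 14892 genes, of which 3.02% were called higher and 1.12% lower. Of 20 partners and targets of NKX2-5 in the heart, none rose and 3 fell, with a median of -1.14 and 19 of 20 estimates below 0. The 3 were Cited2, a transcriptional coregulator (-1.29 ± 0.23, edgeR adjusted p = 0.00519), Irx4, a ventricular factor (-5.20 ± 0.98, adjusted p = 0.00681) and Id2, an inhibitor of bHLH factors (-1.29 ± 0.30, adjusted p = 0.0261, lost in 4 of 6 leave-one-out fits). These lower values stood beside Nkx2-5 levels that overlapped between conditions, and beside cardiomyocyte marker sums of 2627 to 7031 CPM in D6 controls and 825 to 2739 CPM under GLI1 OE, whose part was not tested.

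The lists around the neural and mesenchymal members held both rises and falls. Of 21 ventral neural tube patterning genes, where Nkx2-2 and Nkx2-9 belong, 11 were tested with a median of -0.89. The neural marker sum was 7.85 to 17.8 CPM in D6 controls and 8.69 to 13.7 CPM under GLI1 OE, with Olig2 at 0 in every D6 library. The floor plate marker sum, which includes Foxa2, was 133 to 191 CPM in D6 controls and 187 to 239 CPM under GLI1 OE. Foxa2 and Lmx1b (3.09 ± 0.69, edgeR adjusted p = 0.0209) rose, and Irx3, a more dorsal progenitor factor, fell (-1.23 ± 0.30, adjusted p = 0.0283), the last 2 calls being lost in 5 and 6 of 6 leave-one-out fits. Of 20 lung, thyroid and foregut genes, the field of Nkx2-1, 13 were tested with a median of 0.38, and Foxa2 and the thyroid factor Foxe1 rose. Foxe1 went from 0 to 171 counts, at least 56.6-fold (edgeR adjusted p = 0.00418). Foxe1 and Lmx1b (11 counts over the D6 controls, 98 under GLI1 OE) passed the filter on low counts only through D6 GLI1 OE libraries. Their place among the tested genes thus already reflects higher counts under GLI1 OE. Calls in their lists are therefore not comparable with the share of all genes called higher. Beside Foxe1, the summed endoderm markers, which include Foxa2, were 13.1 to 16.02 CPM in D6 controls and 111 to 133 CPM under GLI1 OE. On average most of that higher sum was Foxa2 itself. The endoderm markers Sox17 (0.43 ± 0.48), Foxa1 (0.78 ± 0.78), Epcam (0.18 ± 0.70) and Cdh1 (1.12 ± 0.87) were not called by edgeR. Of 21 gut mesenchyme, spleen and sclerotome genes, the field of Nkx2-3 and Nkx3-2, 18 were tested with a median of -0.04, 4 rose and 1 fell. The one that fell was Tlx1, a spleen gene (-2.66 ± 0.67, edgeR adjusted p = 0.039), and 5 of 6 leave-one-out fits lost it. The 4 that rose were the gut mesenchyme factors Foxl1 (6.51 ± 0.50, edgeR adjusted p = 6.7e-06), Foxf1 (listed as Foxf1a, 5.13 ± 0.95, adjusted p = 0.00627) and Foxf2 (5.15 ± 1.22, adjusted p = 0.027, lost in 5 of 6 leave-one-out fits), and Sox9, a factor of sclerotome and cartilage (1.60 ± 0.29, adjusted p = 0.00548, lost with the library numbers as pairs, where it was 0.061). Beside these, the gut and lung mesenchyme marker sum was 30.0 to 84.4 CPM in D6 controls and 171 to 276 CPM under GLI1 OE. It includes the called Foxl1, Foxf1 and Foxf2 of that list. Its other markers, Tcf21 (1.58 ± 0.51), Barx1 (0.20 ± 0.91) and Wnt2 (-1.43 ± 0.67), were not called by edgeR. The paraxial and sclerotome sum was 2.33 to 5.19 CPM in D6 controls against 1.04 to 2.98 CPM under GLI1 OE. At D8 and D12 edgeR called no gene of any of the 4 lists, with 0 to 4 genes of a list at an unadjusted p under 0.05 at D8 and 0 to 6 at D12.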

How the data were processed

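The authors deposited whole-number raw counts by gene symbol, covering the 18 libraries, TPM for the 4 D5 controls, and tables of their own comparisons with log2 fold changes, p-values and adjusted p-values, which are quoted only where named. Per the labels' protocols, TruSeq libraries gave stranded reads 50 bases long. Not given in the sources used here are the build, the aligner, the counter and whether it used strand, so genes that overlap others or have antisense partners are uncertain. Count columns carry a day, a condition and a library number, and libraries are named by that number.

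The counts as deposited were tested with edgeR 4.0.16 in R 4.3.3: a minimum count of 10 (filterByExpr), trimmed mean of M-values scaling, a robust quasi-likelihood fit with 1 coefficient for each of the 7 groups and 11 residual degrees of freedom, and Benjamini-Hochberg adjustment over the 14892 genes tested in each contrast, called under 0.05. The model was tested on simulated data. TPM entered no test. Log2 CPM for likeness had a prior count of 2. DESeq2 1.42.0, limma-voom (limma 3.58.1), relative log expression scaling, no filter, fits of only the groups compared, each library left out, and a block by adjacent library numbers were alternatives. A group at 0 counts was given the floor of 3 counts over the group. Ratios with 1 to 3 counts carry exact 95% intervals, and floors and intervals cover counting error only.

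At D6 the deviations of libraries with adjacent numbers from their group means correlated at 0.52, 0.617 and 0.445, each library best with its neighbour, so the numbers were taken to pair the D6 libraries. That pairing comes from the library numbers and these values, not from a label. The members and the gene lists were chosen with earlier results of these data known. The genes named were the members, Gli1 and Ptch1, up to 4 called genes of each list, the 3 genes most like each member, and chromosome neighbours of the members, which were added afterwards. Some genes and gene lists that this rule takes in are left out of the report. Sequences come from GENCODE M21 and RefSeq, and 6 of 7 members had a promoter entry.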

Additional observations from a re-analysis of the deposited data

Results flagged for a closer look

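Nkx2-5 in D5 control library 4 stood apart from the other 3 D5 libraries, at 39.5 CPM against 7.79 to 11.6 CPM, by Dixon's test at the 95% level. Chance marks about 1 in 20 groups in this way if the libraries are independent, which is uncertain for D5 control libraries 1 and 2. Nkx2-2 in D5 control library 2 was at 0.0403 CPM, which is 1 count against 0 in the other 3 libraries. With 3 libraries at 0 any single count meets that test, so it says nothing about this library. The effect of GLI1 OE on Nkx2-9 differed between days, with a change of -5.22 on the log2 scale from D6 to D8 by the edgeR interaction test (Benjamini-Hochberg adjusted p = 0.031).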

How the results depend on the processing

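At D6 2 members were called by edgeR, against 1 in limma-voom, 1 to 2 with each library left out, and 3 with no filter, with only the D6 groups and with the replicate block, while the rise of Nkx2-9 was called in all 12 alternatives run. At D8 and D12 0 members were called, against 1 with DESeq2 on each day, 0 to 1 at D8 with each library left out and 1 at D12 with library pairs crossed (9 with 20, 19 with 10), which was chosen after seeing the data because adjacent D12 numbers deviated in opposite directions. From D6 to D8 in controls 2 members were called, 0 in limma-voom and 0 to 1 with each library left out. From D8 to D12 under GLI1 OE 1 was called, 1 to 2 with each library left out. The D8 minus D6 effect had 1 member called, 0 in limma-voom and 0 to 1 with each library left out, and the D12 minus D6 effect 0, with 1 in DESeq2. Neighbouring groups gave 5 calls, 2 in limma-voom and 3 to 6 with each library left out. The cause of these changes was not tested.

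Signs turned only for estimates that did not pass the test. Nkx2-5 at D8 was -0.842 in limma-voom and -0.767 with the replicate block, and -2.87 to 0.976 with each library left out. Nkx2-5 at D12 was -0.0786 in limma-voom, -0.0305 with the replicate block, -0.027 with the crossed pairs and -0.665 to 0.496 with each library left out. With each library left out Nkx2-1 at D8 ran from -1.79 to 3.92, Nkx2-6 at D8 from -0.371 to 1.27, Nkx2-9 at D8 from -0.704 to 0.52 and Nkx2-9 at D12 from -0.757 to 0.314.

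Over all genes, the 616 called at D6 became 1026 in DESeq2, 1254 with only the D6 groups, 4576 with the replicate block and 330 to 458 with each library left out. At D8 the count went from 0 to 40 in DESeq2 and to 49 without GLI1 OE library 14. At D12 it went from 0 to 16 in DESeq2, 5 without GLI1 OE library 10 and 13 with the crossed pairs. The 94 and 90 genes called for the D8 and D12 effects minus that at D6 became 233 and 286 in DESeq2. The replicate block by adjacent numbers changed the call of 1 member, Nkx3-2 at D6, and of 1 named list gene, Sox9 at D6. Each D8 and D12 group holds 2 libraries, and the control libraries there held at most 4 counts of Nkx2-3 and of Nkx3-2.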
